A study of Mus musculus with 10 samples.

Results

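DNA damage checkpoint and repair genes were followed in mouse bone marrow colonies carrying BCR-ABL, an oncogenic tyrosine kinase that drives chronic myeloid leukaemia and some acute leukaemias. The set holds 36 genes, chosen by name, and takes in every non-control probe whose annotated transcript belongs to one of them. All 36 had a probe, 62 of the 56605 probes on the array measured them, and all 36 entered the tests among 22012 genes. The arrays compared 3 genotypes: colonies without CDK6 (Cdk6-/-), colonies with Cdk6-K43M, a CDK6 protein whose kinase activity is lost, and wild-type colonies (Cdk6+/+). With D-type cyclins, CDK6 drives cells through G1, and it also takes part in transcription. In all 3 genotypes, marrow came from donor mice 6 weeks old, was exposed to retrovirus, was harvested after 24 h and grew for 10 days in methylcellulose to which no growth factor had been added. Each of 4 Cdk6-/- and 4 Cdk6-K43M samples was hybridised in Cy5 on its own array against a pool of 4 wild-type samples in Cy3. For each mutant, 1 further array carried the pool of its 4 RNAs in Cy3 against the wild-type pool in Cy5, called the exchanged pool here. The series' design text speaks of 4 biological replicates, but no label ties a sample to an animal, a culture or a number of colonies, so the p-values measure the spread between these samples only. The wild type is known as a pool and has no spread of its own.

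A broken chromosome is first bound by the MRN complex of Mre11, Rad50 and Nbn, which activates the kinase Atm. Atm marks the surrounding chromatin through the histone H2afx and its reader Mdc1, while the kinase Atr and its activator Topbp1 answer to single-stranded DNA, and Chek1 and Chek2 pass both signals to the cell cycle. In S and G2 phase the ends are trimmed by Rbbp8 and Exo1, and Brca1 with its partner Bard1 recruits Palb2 and Brca2, which load the recombinase that copies the intact sister. The Fanconi anaemia genes clear crosslinks between the strands, and Msh6 belongs to the complex that finds mispaired bases. Many of these genes are transcribed mainly in dividing cells, and E2F factors, which the cyclin D kinases release from the retinoblastoma protein, are known to bind at several of their promoters.

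Promoter sequences are shown for the members that passed a test below, since E2F factors act at promoters of this kind. RefSeq promoters (GRCm38.p6, 250 bases before to 50 after the start site) matched 28 of the 36 members with 29 promoters. No promoter was matched for Exo1 and Rad50, which also passed a test. Each stretch holds 120 bases, 5′ to 3′ on the gene's strand, and capitals mark an E2F motif (TTTCCCGC, TTTCGCGC, TTTGCCGC or TTTGGCGC) or a CCAAT box, searched on both strands. The stretch ends directly before the start site for Brca1, Mdc1, Msh6 and Palb2, and begins 250 bases before it for Bard1 and Atm, where the match lies.
Bard1, chr1:71103103-71103222, minus strand: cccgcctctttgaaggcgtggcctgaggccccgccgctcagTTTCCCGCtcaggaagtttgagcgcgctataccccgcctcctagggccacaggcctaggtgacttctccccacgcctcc
Mdc1, chr17:35841378-35841497, plus strand: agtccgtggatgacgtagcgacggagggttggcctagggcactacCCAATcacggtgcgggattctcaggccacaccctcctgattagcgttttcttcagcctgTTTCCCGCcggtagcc
Msh6, chr17:87974930-87975049, plus strand: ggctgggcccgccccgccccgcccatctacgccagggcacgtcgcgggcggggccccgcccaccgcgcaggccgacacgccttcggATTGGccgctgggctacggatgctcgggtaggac
Brca1, chr11:101551956-101552075, minus strand: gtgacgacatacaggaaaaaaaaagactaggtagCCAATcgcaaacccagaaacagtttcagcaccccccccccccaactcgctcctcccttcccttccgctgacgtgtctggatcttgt
Palb2, chr7:122132947-122133066, minus strand: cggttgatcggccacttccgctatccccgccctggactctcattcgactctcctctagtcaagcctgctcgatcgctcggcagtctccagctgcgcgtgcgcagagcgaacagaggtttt
Atm, chr9:53536802-53536921, minus strand: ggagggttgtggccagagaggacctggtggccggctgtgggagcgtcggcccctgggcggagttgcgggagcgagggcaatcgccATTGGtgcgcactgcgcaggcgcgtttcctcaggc

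The E2F match of Bard1 began at base -209 and that of Mdc1 at base -16 from the start site. Msh6 carried TTTCCCGC at base 16 after the start, beyond the printed stretch. Brca1, Palb2 and Atm held no E2F match in the 300 bases, and their CCAAT boxes began at bases -86, 2 and -165. An E2F motif was present in 7 of the 29 promoters (24.1%), against 2.26% of all 32851 promoters in the table. CCAAT was found in 65.5% against 37.4%, and the GC box GGGCGG in 72.4% against 35.7%. None of the 7 E2F matches shared a base with a GC box. Of the 5 members called lower in either genotype, 4 had a promoter and 3 of these an E2F match. Of the 3 called higher, 2 had a promoter and neither an E2F match, and of the 28 others 22 had a promoter and 4 an E2F match. These matches describe letters in a window and were not tested against the array values.

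On every array and in both channels the probe that stood for each of the 36 members, its brightest, was well above background. Of the 62 probes 59 were kept, and those left out were dimmer probes of Fanca, Mdc1 and Rbbp8. Values are log2 ratios of the mutant over the wild-type pool, and the sign is reversed on the exchanged pools so that a negative value always means less RNA in the mutant. In the fit over all 10 arrays a genotype's change weighted each of its 4 samples by 16.3% and its exchanged pool by 35%. Through the dye term the other genotype's exchanged pool counted 15% and each of its 4 samples -3.75%, which cancel. Fewer cells of one kind and less RNA per cell cannot be told apart in such samples. The Cdk6 probe lay below wild type in Cdk6-/- samples 1 to 3 (-0.37, -0.40 and -0.18) and the exchanged pool (-0.67), but was at 0.0024 in sample 4, and in Cdk6-K43M it lay between 0.31 and 0.83 on all 5 arrays. Where this probe lies relative to the deleted part is not given in the files, so it does not check the labels. Markers of the B lineage, the 10 genes listed, were all well above background everywhere. In Cdk6-/- 1 of them was higher and none lower, and in Cdk6-K43M 4 were higher and 2 lower. Their summed signal ran from 286000 to 357000 in the mutant channel and from 249000 to 323000 in the wild-type channel. Of 14 myeloid markers tested, 5 were lower and none higher in each mutant. S100a9 had the lowest value of that list, -4.16 in Cdk6-/- and -3.94 in Cdk6-K43M. The myeloid median was -0.53 in Cdk6-/- with 12 of 14 below zero, and -0.13 in Cdk6-K43M with 8 of 14 below zero. Of 15 myeloid markers, 9 to 11 were well above background in the mutant channel against 13 or 14 in the wild-type channel. The summed myeloid signal ran from 35200 to 48900 against 41800 to 48200. Of 5 T- and NK-cell markers tested, 2 were higher in Cdk6-/- and 1 in Cdk6-K43M. Thy1 had the highest value of that list in both (2.14 and 2.79). The median of the 5 was -0.015 in Cdk6-/- with 3 below zero, and 0.011 in Cdk6-K43M with 2 below zero. The summed T- and NK-cell signal ran from 6010 to 23100 against 6530 to 8010. None of 3 erythroid and megakaryocyte markers passed. The part of all these markers in the results below was not tested.

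In Cdk6-/- colonies 2 members fell, Bard1 and Exo1, both grouped here with homologous recombination. With limma and Benjamini-Hochberg adjustment at 0.05, 3.85% of all genes were called lower and 3.38% higher, and of the members 2 (5.56%) were lower and none higher. At an unadjusted p under 0.05, 10 members were lower and 2 higher. The share of all genes at that unadjusted threshold is not given here, so these counts do not show an excess among the members. The fitted changes ran from -0.37 to 0.26 with a median of -0.071, against 0.0014 over all genes, and 24 of the 36 (66.7%) lay below zero against 49.6% of all genes. In Cdk6-K43M colonies 4 members fell, Bard1, Brca1, Msh6 and Mdc1, and 3 rose, Palb2, Rad50 and Atm. Here the shares were 11.1% lower and 8.33% higher, against 10.3% and 9.79% of all genes, so the share of members called was close to that of the whole array in each direction. The Cdk6-K43M changes ran from -0.70 to 0.35 with a median of 0.02 (all genes -0.01), and 16 members lay below zero. Because both genotypes were set against the same wild-type pool, their changes are not independent of each other.

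**Figure D1:**
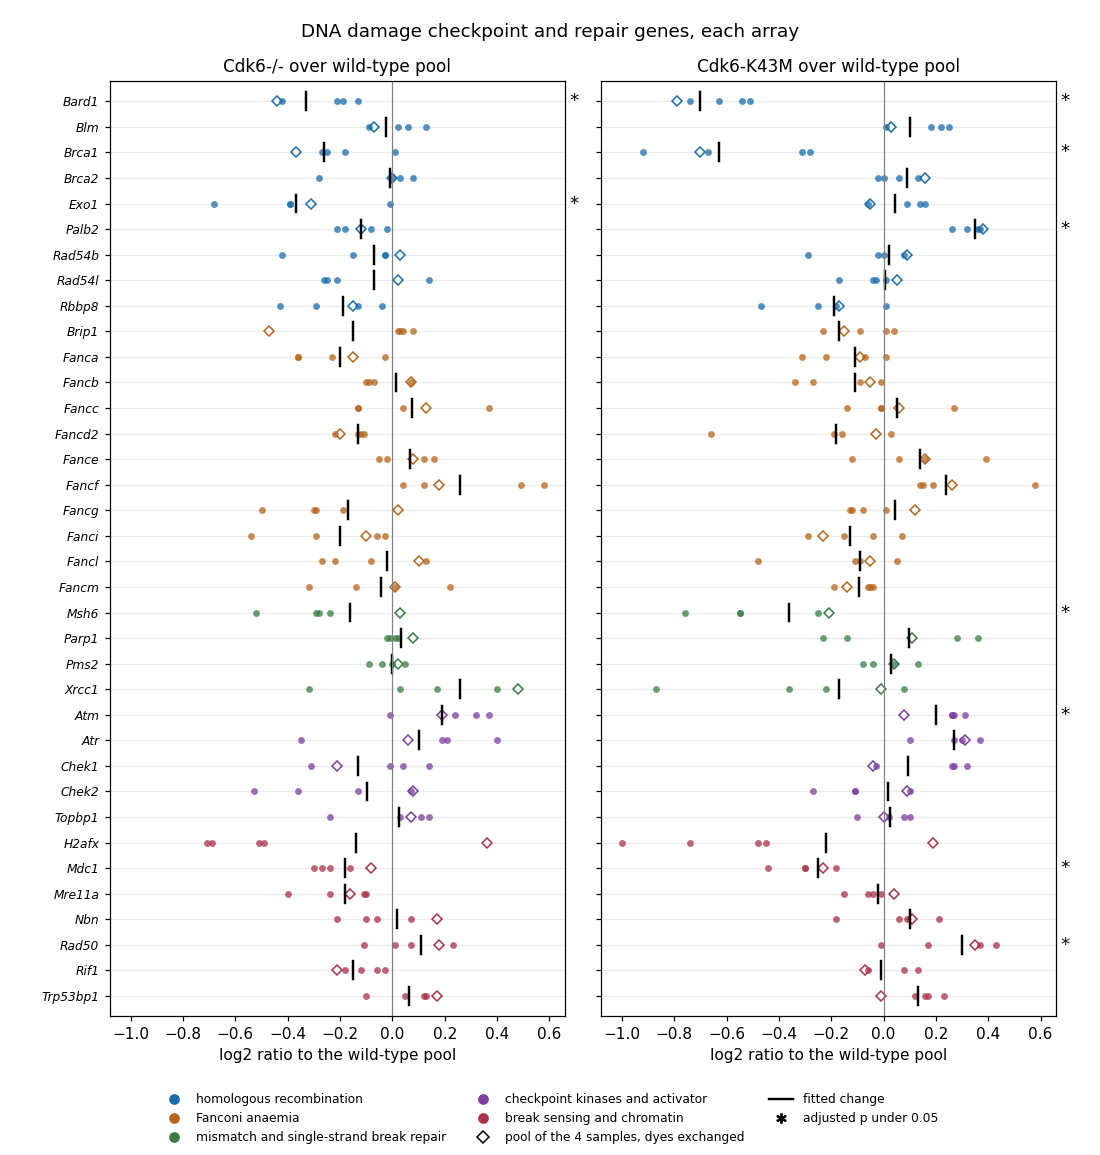
Log2 ratio to the wild-type pool of each of the 36 members (rows, coloured by role) on each array, with Cdk6-/- on the left and Cdk6-K43M on the right. Filled points are the 4 samples, open diamonds the exchanged pool, black bars the fitted change and asterisks the members past the threshold; Bard1 lies below zero on all 5 arrays of both genotypes, and Palb2 lies above zero on all 5 Cdk6-K43M arrays and below zero on all 5 Cdk6-/- arrays.

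These calls depended on how the arrays were brought to one scale and on how the pool was treated. Median centring in place of loess moved the median of all genes in the Cdk6-K43M comparison from -0.01 to 0.11, and 15 members were then called, 2 lower and 13 higher, against 4 lower and 3 higher with loess. The same centring left no member called in Cdk6-/-. It also left the median of all tested genes away from zero on every array. That median ran from 0.34 to 0.546 in the single samples and was -0.363 and -0.16 in the exchanged pools. Without the exchanged arrays and dye term, 8 members were called in Cdk6-/-, 7 lower and 1 higher. With standard errors widened as if the pool varied like the mean of 4 samples, Cdk6-/- had no member called and Cdk6-K43M had 3 (Brca1, Bard1 and Palb2). With the slide as a block, 1 member stayed called in Cdk6-/- (Bard1) and 6 in Cdk6-K43M. The share of all genes called under each of these settings is not given here. These counts therefore do not separate a shift of the members from a shift of the whole array. Slides 1 and 3 each held 1 single sample of each mutant genotype, and slide 2 held 2 of each. The median of the members within slides 1, 2 and 3 was -0.097, -0.092 and -0.024 in Cdk6-/-, and -0.0021, -0.09 and 0.034 in Cdk6-K43M.

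Of the 9 homologous recombination genes, Bard1 and Exo1 passed as lower in Cdk6-/- (22.2%, against 3.85% of all genes). In Cdk6-K43M, Bard1 and Brca1 passed as lower (22.2%, against 10.3%) and Palb2 as higher (11.1%, against 9.79%). The roles were assigned with earlier results known, and the group was not tested as a set. All 9 lay below zero in Cdk6-/-, where 49.6% of all genes did, with a median of -0.12, although 7 of them did not pass the test. Brca2 (-0.0084 ± 0.0618 SE), Blm (-0.025 ± 0.0547) and Rad54b (-0.07 ± 0.0782) lay at zero within their errors. That count of 9 fell to 7 with median centring, to 8 with the slide as a block or without the exchanged arrays, and to 7 without Cdk6-/- replicate 3. In Cdk6-K43M 3 of the 9 lay below zero, the median was 0.021, and 2 passed as lower and 1 as higher. Without the exchanged arrays 5 of the 9 lay below zero with a median of -0.057, and without Cdk6-K43M replicate 1 also 5, with a median of -0.0094. Bard1 and Brca1 had the largest falls of the 36 members in Cdk6-K43M, and Palb2 the largest rise.

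Bard1 encodes the partner with which Brca1 forms a ubiquitin ligase. Its ratios were -0.42, -0.13, -0.19 and -0.21 in Cdk6-/- samples 1 to 4 and -0.44 in the exchanged pool. In Cdk6-K43M they were -0.54, -0.74, -0.51 and -0.63, with -0.79 in the exchanged pool. All 10 arrays were below zero, and the 4 Cdk6-K43M samples all lay below the 4 Cdk6-/- samples. The fitted change was -0.33 ± 0.0598 (SE) in Cdk6-/-, 1.26-fold lower (limma adjusted p = 0.0131), and -0.70 ± 0.0598 in Cdk6-K43M, 1.62-fold lower (adjusted p = 0.000111). The Cdk6-K43M call held in all 18 alternatives tried, with changes from -0.72 to -0.51. In Cdk6-/- 2 of 18 ended the call, median centring (adjusted p = 0.0846) and the widened errors (adjusted p = 0.146). Without Cdk6-/- sample 4, which stood at wild type on the Cdk6 probe, the Cdk6-/- change was -0.34 (adjusted p = 0.0236). A second, dimmer Bard1 probe gave -0.10 and -0.34 for the 2 genotypes, the same direction at a smaller size.

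Brca1, the tumour suppressor that starts strand exchange with Bard1, had ratios of -0.25, -0.18, 0.01 and -0.27 in Cdk6-/- samples and -0.37 in the exchanged pool. In Cdk6-K43M the ratios were -0.31, -0.92, -0.28 and -0.67, and -0.70 in the exchanged pool. The Cdk6-K43M samples spread widely, with samples 2 and 4 far lower than samples 1 and 3. The fitted change was -0.63 ± 0.0996 (SE) in Cdk6-K43M, 1.55-fold lower (limma adjusted p = 0.00233), and held in all 18 alternatives between -0.72 and -0.44. In Cdk6-/- it was -0.26 ± 0.0996 and did not pass (adjusted p = 0.138). The dimmer Brca1 probe gave -0.11 in Cdk6-/- and -0.25 in Cdk6-K43M.

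Palb2 joins Brca1 to Brca2, and its RNA moved the other way from that of Brca1 and Bard1 in Cdk6-K43M. Its ratios were 0.36, 0.26, 0.37 and 0.32 in the Cdk6-K43M samples and 0.38 in the exchanged pool. In Cdk6-/- they were -0.08, -0.18, -0.21 and -0.02, and -0.12 in the exchanged pool. The groups did not overlap, and each lay on its own side of wild type. The rise in Cdk6-K43M was 0.35 ± 0.0478 (SE), 1.27-fold (limma adjusted p = 0.00119), and held in all 18 alternatives between 0.27 and 0.49, while -0.12 in Cdk6-/- did not pass (adjusted p = 0.169). Its second probe, annotated to another transcript, gave -0.064 and 0.20, with Cdk6-K43M sample 2 at -0.04. Both Palb2 probes were dim for the set, with mean log2 signals of 7.43 and 6.94.

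Exo1, the exonuclease that lengthens the resected end and also acts in mismatch repair, had ratios of -0.39, -0.39, -0.68 and -0.01 in Cdk6-/- samples and -0.31 in the exchanged pool. In Cdk6-K43M it had 0.09, -0.06, 0.14 and 0.16, and -0.05 in the exchanged pool. Cdk6-/- sample 4 stood with the Cdk6-K43M samples, and so the groups overlapped. The change in Cdk6-/- was -0.37 ± 0.0913 (SE), 1.29-fold lower (limma adjusted p = 0.0413), and in Cdk6-K43M 0.044 ± 0.0913 (adjusted p = 0.784). The Cdk6-/- call was lost in 9 of 18 alternatives. Leaving out Cdk6-/- replicate 1, 2 or 3 gave adjusted p = 0.101, 0.086 and 0.0533, and leaving out Cdk6-K43M replicate 1 or 3 gave 0.0624 and 0.056, while without Cdk6-/- replicate 4 the change was -0.44 (adjusted p = 0.0148).

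The other homologous recombination genes did not pass in either genotype. Rbbp8, which starts resection, had -0.19 ± 0.0824 (SE) in both genotypes. Brca2 was at -0.0084 and 0.088, Blm, the helicase of Bloom syndrome, at -0.025 and 0.10, Rad54l at -0.072 and 0.0051, and Rad54b at -0.07 and 0.021 for Cdk6-/- and Cdk6-K43M. The samples of Brca2 ran from -0.28 to 0.08 in Cdk6-/- and from -0.02 to 0.13 in Cdk6-K43M.

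**Figure D2:**
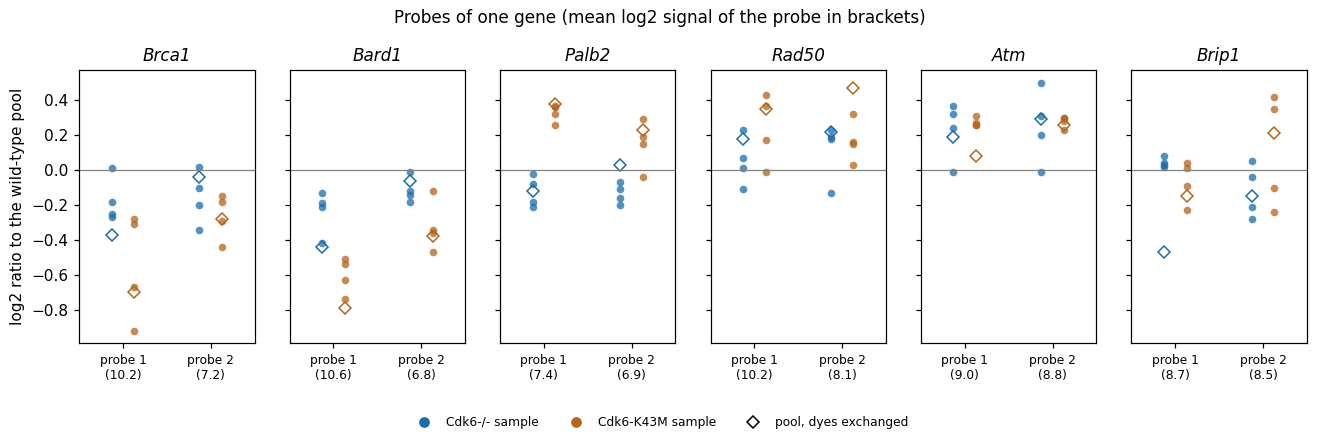
Log2 ratio to the wild-type pool for every kept probe of 6 members measured by 2 probes each, with the probe's mean log2 signal in brackets. Points are samples (blue Cdk6-/-, brown Cdk6-K43M) and open diamonds the exchanged pools; the brighter Brca1 and Bard1 probes lie farther below zero than the dimmer ones in Cdk6-K43M, and the 2 Brip1 probes differ in sign there, at -0.17 and 0.14.

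Probes of one gene did not always give the same sign. Of 19 members with several kept probes, all probes shared a sign for 12 in Cdk6-/- and for 11 in Cdk6-K43M. For Fanca the brightest probe gave -0.20 and -0.11 for the 2 genotypes and a dimmer one 0.15 and 0.25. For Brca1, Bard1, Palb2, Rad50 and Atm, members that passed a test, both probes shared a sign within each genotype. The 17 remaining members had 1 kept probe, among them Exo1, Msh6 and Mdc1.

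None of the 11 members grouped here as Fanconi anaemia genes passed the test in either genotype. That group leaves out Brca1, Brca2 and Palb2, which were placed with homologous recombination. Fitted changes ran from -0.20 to 0.26 in Cdk6-/- with a median of -0.044, and from -0.18 to 0.24 in Cdk6-K43M with a median of -0.095, and 7 of the 11 lay below zero in each. Fancf, an adaptor of the core complex, was the highest of them. Its ratios were 0.04, 0.58, 0.12 and 0.49 in Cdk6-/- samples, 0.15, 0.19, 0.58 and 0.14 in Cdk6-K43M samples, and 0.18 and 0.26 in the exchanged pools. All 10 arrays were above zero with a wide spread, and the changes of 0.26 ± 0.103 (SE) and 0.24 ± 0.103 did not pass (limma adjusted p = 0.15 and 0.126). Fancd2 and Fanci, which form the pair that the core complex ubiquitinates, were at -0.13 and -0.20 in Cdk6-/- and -0.18 and -0.13 in Cdk6-K43M.

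Fancg, another core subunit, had ratios of -0.29, -0.30, -0.50 and -0.19 in Cdk6-/- samples and -0.08, -0.13, -0.12 and 0.01 in Cdk6-K43M samples, so that the samples of the 2 genotypes did not overlap. The exchanged pools stood at 0.02 and 0.12, above every single sample of their genotype. The fitted changes of -0.17 and 0.042 did not pass (limma adjusted p = 0.105 and 0.665). These values are from the brightest Fancg probe. On its dimmer kept probes the samples of the genotypes overlapped, with changes of -0.02 and -0.021 in Cdk6-/- and 0.041 and 0.077 in Cdk6-K43M. On the brighter probe of Brip1, the helicase that binds Brca1, the 4 Cdk6-/- samples lay between 0.02 and 0.08. The exchanged pool was at -0.47 there, so the samples and the pool differed in sign on that probe. Its fitted -0.15 did not pass (limma adjusted p = 0.202). The dimmer Brip1 probe gave -0.21, -0.04, -0.28 and 0.05 in the Cdk6-/- samples and -0.15 in the exchanged pool.

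Msh6 was the only one of the 4 mismatch and single-strand break repair genes to pass, and only in Cdk6-K43M. It acts in the recognition of single mispaired bases. Its ratios were -0.29, -0.24, -0.28 and -0.52 in Cdk6-/- samples and -0.55, -0.55, -0.25 and -0.76 in Cdk6-K43M samples. The exchanged pools stood higher, at 0.03 and -0.21. All 8 single samples were below zero and the genotypes overlapped. The fitted change was -0.36 ± 0.0786 (SE) in Cdk6-K43M, 1.29-fold lower (limma adjusted p = 0.0105), and -0.16 ± 0.0786 in Cdk6-/- (adjusted p = 0.24). It was lost with median centring (-0.12, adjusted p = 0.45), with Agilent's processed signals (adjusted p = 0.0716) and with the widened errors (adjusted p = 0.0894).

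Xrcc1, the scaffold of single-strand break repair, had the largest standard error of the 36 members. Its ratios were 0.40, 0.03, 0.17 and -0.32 in Cdk6-/- samples and -0.36, 0.08, -0.22 and -0.87 in Cdk6-K43M samples, with 0.48 and -0.01 in the exchanged pools. The groups overlapped, and the changes of 0.26 ± 0.143 (SE) and -0.17 ± 0.143 did not pass (limma adjusted p = 0.282 and 0.468). Parp1, which senses single-strand breaks, was at 0.032 and 0.096, and Pms2, of the mismatch nicking complex, at -0.001 and 0.03.

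All 5 checkpoint kinases and activators lay above zero in Cdk6-K43M, where 52.7% of all genes lay below zero. Their median was 0.093, and Atm passed. Chek2 (0.018 ± 0.0933 SE) and Topbp1 (0.025 ± 0.0668) lay at zero within their errors. With the mean of a gene's probes, without the exchanged arrays, or without Cdk6-K43M replicate 3, 1 of the 5 lay below zero. Atm had ratios of 0.32, 0.24, -0.01 and 0.37 in Cdk6-/- samples and 0.31, 0.26, 0.26 and 0.27 in Cdk6-K43M samples, with 0.19 and 0.08 in the exchanged pools. The Cdk6-K43M samples lay between 0.26 and 0.31, inside the range of the Cdk6-/- samples. The change was 0.20 ± 0.0625 (SE) in Cdk6-K43M, 1.15-fold higher (limma adjusted p = 0.0489), and 0.19 ± 0.0625 in Cdk6-/- (adjusted p = 0.101). With 12 of 18 alternatives ending it, the Atm call stood at the threshold, and among them was leaving out any 1 of the 4 Cdk6-K43M samples (adjusted p from 0.0784 to 0.1) or Cdk6-/- replicate 1 or 2 (adjusted p = 0.0618 and 0.0693).

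Atr, the kinase of stalled replication forks, had ratios of 0.30, 0.27, 0.37 and 0.10 in Cdk6-K43M samples and 0.31 in the exchanged pool. In Cdk6-/- it had 0.19, 0.21, -0.35 and 0.40, and 0.06 in the exchanged pool. All Cdk6-K43M arrays were above zero, and Cdk6-/- sample 3 alone lay below. The change of 0.27 ± 0.103 (SE) did not pass (limma adjusted p = 0.0938), but did without Cdk6-/- replicate 3 (adjusted p = 0.0272) and with median centring (adjusted p = 0.0151). Chek1 was at -0.13 and 0.093 for Cdk6-/- and Cdk6-K43M, Chek2 at -0.098 and 0.018, and Topbp1 at 0.027 and 0.025, none past the threshold.

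Among the 7 genes of break sensing and chromatin, Mdc1 fell and Rad50 rose in Cdk6-K43M, and none passed in Cdk6-/-. Mdc1, the adaptor that binds phosphorylated H2afx, had ratios of -0.30, -0.24, -0.16 and -0.27 in Cdk6-/- samples and -0.30, -0.30, -0.18 and -0.44 in Cdk6-K43M samples, with -0.08 and -0.23 in the exchanged pools. All 10 arrays were below zero and the genotypes overlapped. The change was -0.25 ± 0.0515 (SE) in Cdk6-K43M, 1.19-fold lower (limma adjusted p = 0.00784), and -0.18 ± 0.0515 in Cdk6-/- (adjusted p = 0.0693). Median centring (-0.085, adjusted p = 0.424) and the widened errors (adjusted p = 0.0733) ended the call, and leaving out Cdk6-K43M replicate 4 brought Mdc1 past the threshold in Cdk6-/-.

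Rad50, the coiled-coil subunit that tethers broken ends, had ratios of 0.43, -0.01, 0.37 and 0.17 in Cdk6-K43M samples and 0.35 in the exchanged pool. In Cdk6-/- it had 0.07, 0.23, -0.11 and 0.01, and 0.18 in the exchanged pool. Cdk6-K43M sample 2 stood apart at wild-type level. The change was 0.30 ± 0.0778 (SE), 1.23-fold higher (limma adjusted p = 0.0239), and was lost without Cdk6-K43M replicate 1 (adjusted p = 0.0554) or 3 (adjusted p = 0.0551), without the exchanged arrays (adjusted p = 0.0634) and with the widened errors (adjusted p = 0.152). Its partners Mre11a and Nbn did not pass, at -0.18 and 0.017 in Cdk6-/- and -0.021 and 0.10 in Cdk6-K43M. Rif1 and Trp53bp1, which protect ends from resection, were at -0.15 and 0.064 in Cdk6-/- and -0.011 and 0.13 in Cdk6-K43M. The fit dropped Rif1 in Cdk6-K43M sample 3, whose spot was not uniform.

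H2afx, the histone variant phosphorylated at breaks, differed between the dye orientations. Its ratios were -0.51, -0.69, -0.71 and -0.49 in Cdk6-/- samples and -0.48, -1.0, -0.45 and -0.74 in Cdk6-K43M samples. The exchanged pools gave 0.36 and 0.19. Every single sample was below zero and both exchanged pools above, with a dye term of -0.46, the only one over 0.3 in size among the members. The fitted -0.14 and -0.22 did not pass (limma adjusted p = 0.369 and 0.105), whereas without the exchanged arrays and dye term the Cdk6-K43M change was -0.67 (adjusted p = 0.00159). The sign of the exchanged pool opposed the mean of the 4 samples in 15 of 36 members in Cdk6-/- and 10 in Cdk6-K43M. Over all members the dye term had a median size of 0.0585, against 0.0638 over all genes.

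Set directly against each other on the 8 single-sample arrays, the genotypes differed in 1 member, Palb2. It was 0.45 ± 0.0718 (SE) higher in Cdk6-K43M, 1.37-fold (limma adjusted p = 0.0395; 95% confidence interval 0.29 to 0.62), where 0.263% of all genes were called higher and 0.25% lower. The difference was 0.45, 0.41 and 0.55 within slides 1, 2 and 3. Leaving out any 1 of the 8 samples gave differences from 0.42 to 0.49 and ended the call (adjusted p from 0.0661 to 0.126, and 0.0664 without Cdk6-/- sample 4), as did the slide as a block (adjusted p = 0.126) and the mean of both probes (0.37, adjusted p = 0.0974). Of 17 alternatives 12 ended it.

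Exo1 had the same difference with a wider error, 0.45 ± 0.133 (SE; limma adjusted p = 0.206; interval 0.15 to 0.75), and 0.48, 0.40 and 0.53 within the 3 slides. Bard1 and Brca1 were lower in Cdk6-K43M by -0.37 each (intervals -0.57 to -0.17 and -0.71 to -0.037), without passing (adjusted p = 0.149 and 0.313). Within slides 1, 2 and 3 the Bard1 difference was -0.12, -0.49 and -0.38. That of Brca1 was -0.063, -0.67 and -0.098, largest in size on slide 2. That slide held Cdk6-K43M samples 2 and 4, the lowest single samples for Brca1, so slide and sample cannot be told apart. Bard1 passed when all 10 arrays entered the fit. On the brightest probe of each gene, the samples of the genotypes did not overlap for 4 members with a value on every array. Bard1 and Brca1 were lower in Cdk6-K43M and Palb2 and Fancg higher, where 4.11% of all genes did so lower and 4.05% higher. On the dimmer kept probes of Bard1, Brca1 and Fancg the samples overlapped. The differences of all members ran from -0.41 to 0.45 with a median of 0.069 (all genes -0.0095). The median interval, which is not adjusted for the number of genes tested, reached 0.259 to either side. It is not the detection limit of the adjusted test, in which Exo1 at 0.45 and Bard1 and Brca1 at -0.37 did not pass. Differences larger than 0.259 could therefore also be missed.

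**Figure D3:**
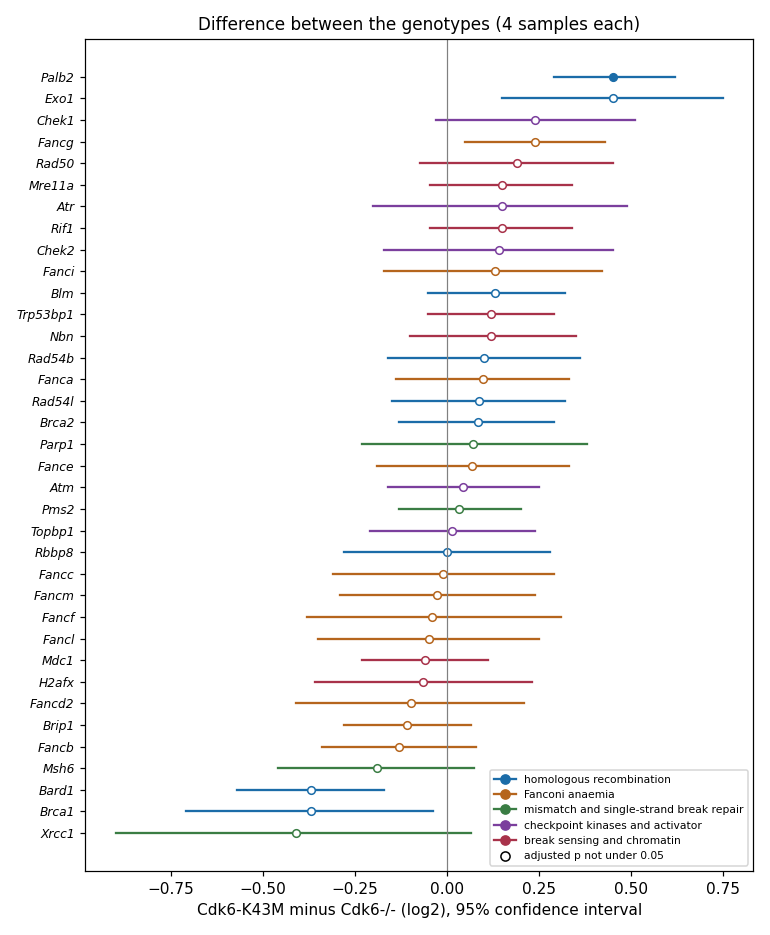
Difference between Cdk6-K43M and Cdk6-/- (log2) for each of the 36 members with its 95% confidence interval, from the 8 single-sample arrays. A filled point marks the member past the threshold, Palb2 at 0.45; open points did not pass, among them Exo1 at 0.45 with a wider interval and Bard1 and Brca1 at -0.37.

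Of 133 other repair genes listed, 128 were tested. In Cdk6-/- 11 were lower and 2 higher (8.59% and 1.56%, against 3.85% and 3.38% of all genes), with a median of -0.058. The smallest p-values belonged to Helq, a helicase of crosslink repair (-0.31 ± 0.0558 SE, limma adjusted p = 0.013), and Rpa1, which coats single-stranded DNA (-0.34 ± 0.0637, adjusted p = 0.0162), among the lower genes, and to Poll, a polymerase of end joining (0.32 ± 0.0574, adjusted p = 0.0137), and Wrn, the helicase of Werner syndrome (0.25 ± 0.049, adjusted p = 0.0196), among the higher. In Cdk6-K43M 26 were lower and 15 higher (20.3% and 11.7%, against 10.3% and 9.79% of all genes), with a median of -0.045. Mbd4, a glycosylase that removes thymine mispaired with guanine (-0.69 ± 0.058 SE, limma adjusted p = 0.000105), and Pkmyt1, an inhibitory kinase of Cdk1 (-0.68 ± 0.0867, adjusted p = 0.000867), had the smallest p-values among the lower genes, and Poll (0.42 ± 0.0574, adjusted p = 0.00117) and Eme2, a subunit of a junction nuclease (0.66 ± 0.0958, adjusted p = 0.00149), among the higher. Polm, another polymerase of end joining, singled out after its values were seen, had the lowest value of the list, -1.26 ± 0.196 (SE, limma adjusted p = 0.00215). Between the genotypes Mlh3, a mismatch repair subunit, was higher in Cdk6-K43M (0.43 ± 0.0661 SE, limma adjusted p = 0.0362), and no other related gene passed.

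Pathways within this list are given against the same shares of all genes, and none was tested as a group. End joining had 3 lower and 1 higher of 10 in Cdk6-K43M, and 1 higher with none lower in Cdk6-/-. Mismatch repair had 3 lower and 1 higher of 8 in Cdk6-K43M and 2 lower in Cdk6-/-. Recombination and resolution factors had 7 lower and 4 higher of 32 in Cdk6-K43M, and 3 lower and 1 higher in Cdk6-/-. Checkpoint signalling had 3 lower and 1 higher of 14 in Cdk6-K43M and 2 lower in Cdk6-/-. Nucleotide excision repair had 2 lower and 2 higher of 13 in Cdk6-K43M, and none of either in Cdk6-/-. Fanconi accessory and crosslink factors had 2 lower and 2 higher of 13 in Cdk6-K43M and 1 lower in Cdk6-/-. Base excision and single-strand break repair had 3 lower and 2 higher of 22 in Cdk6-K43M and 1 lower in Cdk6-/-. Break-site chromatin and ubiquitin factors had 3 lower and 2 higher of 16 in Cdk6-K43M and 2 lower in Cdk6-/-.

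Among genes of DNA replication and mitosis, calls were on the lower side in both mutants. Of 36 tested, 11 were lower and none higher in Cdk6-/-, with a median of -0.23, and 15 lower and none higher in Cdk6-K43M, with a median of -0.20. The other 25 and 21 did not pass, and the difference from the repair members was not tested. The mitotic kinase Nek2 fell by 0.77 and 0.97 in Cdk6-/- and Cdk6-K43M on the log2 scale, and the ribonucleotide reductase subunit Rrm2 by 0.68 in both (limma adjusted p = 0.000195, 2.22e-05, 0.00331 and 0.000943). Array by array, the replication and mitosis median was -0.33, -0.21, -0.45 and -0.18 in Cdk6-/- samples and -0.29, -0.59, -0.19 and -0.27 in Cdk6-K43M samples. The repair members' median was -0.097, -0.024, -0.20 and -0.029 in Cdk6-/- samples and -0.0021, -0.14, 0.034 and -0.017 in Cdk6-K43M samples. In each genotype the sample with the lowest replication and mitosis median, Cdk6-/- 3 and Cdk6-K43M 2, was also the one with the lowest repair median. The members that passed a test were mixed in this. Among single samples, Exo1, Palb2, Atm and Rad50 were lowest in Cdk6-/- sample 3, but Bard1 and Msh6 were not. Brca1 (0.01) and Mdc1 (-0.16) were highest there. In Cdk6-K43M, sample 2 was lowest for Brca1, Bard1, Palb2, Exo1 and Rad50, and sample 4 for Msh6 (-0.76) and Mdc1 (-0.44). Atm hardly differed between the Cdk6-K43M samples. The part of the replication and mitosis genes in the repair members' values was not tested.

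**Figure D4:**
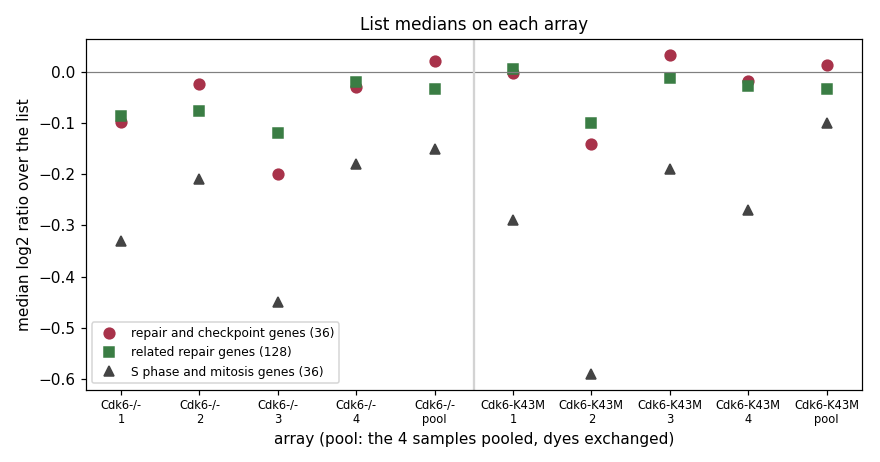
Median log2 ratio to the wild-type pool on each of the 10 arrays for the 36 repair and checkpoint members (circles), 128 related repair genes (squares) and 36 replication and mitosis genes (triangles). On every array the triangles lie below the circles and squares, and all 3 lists are lowest in Cdk6-/- sample 3 and Cdk6-K43M sample 2 within their genotype.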

How the data were processed

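Spot and local background intensity values were extracted with Agilent Feature Extraction 11.5.1.1, and the same files hold Agilent's processed intensity values, per the file headers. A loess normalized log2 table was deposited by the authors; no source used here gives its background correction, and 68 text cells in it were set to missing. RNA (100 ng) was labelled with a 2-colour low input kit (version 6.7), per the labels' protocols.

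Median spot signals were corrected by normexp (offset 50) and normalized by loess within arrays in limma 3.58.1 (R 4.3.3). Non-uniform spots were set to missing (195 values). Symbols came from RefSeq (GRCm38.p6) by transcript and matched 58.3% of the probes. Probes well above background on 3 of 4 arrays of a genotype or 5 of 10 wild-type channels were kept (28182), and the brightest stood for its gene. Linear models with empirical Bayes used all 10 arrays with a dye term against wild type (median SE 0.0728) and 8 arrays between genotypes (0.106). The exchanged pools repeat the RNA of the single samples, so the errors against wild type may be too small. Benjamini-Hochberg adjustment ran over the 22012 genes tested. The fit was tested on simulated data.

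The members, their roles and the gene lists were chosen with earlier results of these data known. Values are given for members past the threshold in any comparison and the 4 largest other changes, and for the 2 smallest p-values each way in the related and replication lists; other members named were chosen after their values were seen. Labels share replicate numbers, but deviations of same-numbered samples correlated between -0.066 and 0.228, so the numbers were not taken as pairs. The number of arrays limits the precision.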

Additional observations from a re-analysis of the deposited data

Results flagged for a closer look

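Within 26 groups of 4 samples, 2 held a sample far from the other 3 of its genotype by Dixon's gap at the 95% level, about as many as chance gives at 1 in 20. For Msh6, Cdk6-/- sample 4 stood at -0.52, below the other 3 samples. For Fancf, Cdk6-K43M sample 3 stood at 0.58, above the other 3 samples. Palb2 differed between the genotypes by a test of the difference itself, at 0.45 higher in Cdk6-K43M (limma adjusted p = 0.0395).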

How the results depend on the processing

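The calls of Brca1, Bard1 and Palb2 in Cdk6-K43M held in all 18 alternatives, and H2afx reversed with median centring in Cdk6-K43M (0.057, adjusted p = 0.748). Members called in Cdk6-/- (2) were 1 with Agilent's processed signals, 0 with median centring, 1 with the slide as a block, 8 without the exchanged arrays and dye term (7 lower, 1 higher), 0 with the widened errors and 1 to 3 with a replicate left out. Members called in Cdk6-K43M (7) were 15 with median centring, 3 with the widened errors and 5 to 8 with a replicate left out. Members called between the genotypes (1) were 0 with median centring, the mean of kept probes, the slide as a block or any replicate left out, and 2 with all 10 arrays. The median of the members moved to 0.17 with median centring and -0.09 within slide 2 in Cdk6-K43M, and to 0.18 with median centring between the genotypes. With the replicate number as a replicate block, 2, 7 and 0 members were called in the 3 comparisons, and Palb2 had a difference of 0.45 (adjusted p = 0.121). No other call changed with that block. The share of all genes called under each setting is not given beside these counts, and the cause of these shifts was not tested. For the members the 95% interval reached a median of 0.171 to either side against wild type and 0.259 between the genotypes, which limits the small differences these arrays can show.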
